A study of Mus musculus with 6 samples.

Results

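The transporters of the blood-labyrinth barrier (BLB) described here were the products of 10 genes, *Slc2a1*, *Slc7a5*, *Slc3a2*, *Slc7a1*, *Slc16a1*, *Abcb1a*, *Abcg2*, *Abcc1*, *Abcc4* and *Mfsd2a*. Their rows were taken by symbol alone, as those of the count table that carry 1 of these names. The list of names was itself drawn up with earlier results of these data known. Each name matched 1 row, so that the set held 10 of the 24421 genes in the table, and each of the 10 had enough reads to be tested.

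The capillaries of the stria vascularis are sealed by tight junctions, so that nutrients reach the cochlea mainly through carriers in the endothelial membrane. Solute carriers bring in glucose, amino acids, lactate and lipids, while ATP-binding cassette (ABC) pumps return drugs and other foreign or conjugated compounds to the blood. The same carriers are textbook features of brain capillary endothelium, where they mark a differentiated barrier.

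The data comprised 6 RNA libraries of cultured stria vascularis endothelial cells, 3 *Nhe6*-knockout and 3 wildtype, each from an untreated culture of mice at postnatal days 10 to 12. The *Nhe6*-knockout mice carried a targeted gene disruption, and the labels give a C57BL/6N background for all 6 libraries, whereas the methods of the study describe a backcross into C57BL/6J. Each culture pooled at least 6 mice, and the cells had been purified by sorting and then grown further. Since each library stands for 1 culture, p-values measure the spread between cultures.

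Values of 3 cultures are listed throughout in the order of replicates 1 to 3. A normalized count is the number of reads on a gene, scaled to a common library size, and a fold change is that of *Nhe6*-knockout over wildtype cells, given with its standard error (SE). An adjusted p is corrected over all 13479 genes tested, with 0.05 as the threshold.

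The label of the cells was checked against marker genes. Of 15 endothelial markers, 8 passed the filter on low counts. *Cldn5*, the claudin of capillary tight junctions, and *Robo4* had 0 reads in each library, which allows up to 3 counts, and *Pecam1* had at most 8 reads. *Cdh5*, the endothelial cadherin, was lower in *Nhe6*-knockout cells (log2 fold change -4.15, adjusted p = 0.0133, edgeR). The fold change was above 0 for 4 of these 8, among them *Emcn* (0.68 on the log2 scale) and *Eng* (0.76), which did not pass the threshold. The other 4, *Cdh5*, *Esam* (-3.54), *Flt1* (-1.79) and *Kdr* (-0.42), were below 0, and of these only *Cdh5* passed. Wildtype replicate 2 was the highest library for 5 of the 8 and the lowest for 3, *Emcn* and *Eng* among the latter. A mean of 100 or more normalized counts was reached by 6 of the 15 endothelial and by 10 of 10 fibroblast markers. The summed fibroblast level was 276223 to 286982 normalized counts in *Nhe6*-knockout and 255213 to 395436 in wildtype cells, and the summed endothelial level was 16084 to 24718 and 11120 to 22553. *Emcn* alone held 18385, 17400 and 9896 of the endothelial sum in *Nhe6*-knockout and 13407, 409 and 14723 in wildtype cultures. It was thus most of that sum in each library but wildtype replicate 2. For mural markers the sums were 22135 to 24416 and 16324 to 35254, for melanocyte markers 411 to 715 and 288 to 1212, and for muscle markers 74.3 to 104 and 149 to 190. In such bulk RNA, fewer cells of a type and less RNA per cell cannot be told apart.

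Libraries held between 25587097 and 29126232 reads on genes. Wildtype replicate 2 lay apart on the first principal component, at 117 against -31.9 to -6.58 for the other 5 libraries. Its summed level of 10 macrophage markers was 95.9 normalized counts, against 1315 to 3284 in the other libraries, and that of 10 epithelial markers was 4.13 against 63.4 to 1201. *Acta2*, a contractile gene of mural cells, stood at 16267 normalized counts in this library and at 29.3 to 1204 in the others. Of the 10 mural markers, however, this library was the highest for 3 and the lowest for 5, so *Acta2* does not stand for the list. *Nhe6*-knockout replicates 1 and 2 were much more alike than other pairs, with a mean chi-square per gene of 5.10 against 96.3 to 427, although they differed beyond sampling noise and were kept as 2 cultures. The summed level of 10 cell cycle genes moved with the genotype, at 7076 to 12685 normalized counts in *Nhe6*-knockout and 2161 to 3384 in wildtype cells.

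Levels of different genes were compared as normalized counts per kilobase of exon. *Slc3a2*, the heavy chain shared by several amino acid exchangers, had the highest mean level of the 10 transporters, at 3650 per kilobase, above 98.3% of the genes tested. *Abcg2*, the efflux pump BCRP, followed at 715 per kilobase. *Slc16a1* (354), *Slc2a1* (306) and *Abcb1a* (201) were also above the median of all genes tested, which was 160 per kilobase.

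*Slc7a5* (124), *Abcc1* (99.5), *Abcc4* (67.4) and *Slc7a1* (52.7) lay below that median, again as means per kilobase over 6 libraries. *Mfsd2a*, a lipid carrier that in brain marks barrier endothelium, came last with 13.4 per kilobase. Neighbours in this order mostly overlapped, since the ranges over the libraries were separate for only 2 of the 9 adjacent pairs, *Slc3a2* over *Abcg2* and *Slc7a1* over *Mfsd2a*. The mean of *Slc16a1* rested on wildtype replicate 2, and it exceeded that of *Slc2a1* in 1 of 6 libraries. With the longest transcript as the length, *Abcc1* stood at 221 per kilobase in place of 99.5. The median above rests on the union of exons and cannot be set against this value, and other levels shift with this length as well.

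**Figure D1:**
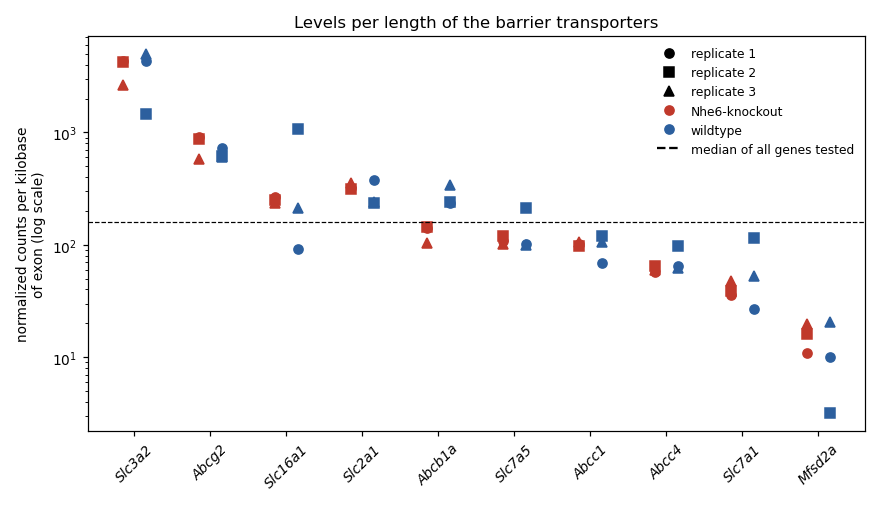
Level of each of the 10 transporters in each library, as normalized counts per kilobase of exon on a log scale, with *Nhe6*-knockout cultures in red and wildtype cultures in blue. *Slc3a2* is highest and *Mfsd2a* lowest, the dashed line marks the median of all genes tested (160 per kilobase), and the square of wildtype replicate 2 often lies away from its group.

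To ask whether the loss of *Nhe6* was accompanied by a different set of barrier carriers, the genotypes were compared gene by gene. None of the 10 transporters passed the threshold of edgeR's test, where 0.0668% of all genes tested did. One gene, *Abcb1a*, had an unadjusted p under 0.05, against 11.8% of all genes tested, and it was the only one of the 10 without overlap between the genotypes, against 19.9% of all genes. The log2 fold change was below 0 for 5 of the 10 and above 0 for the other 5, with a median of -0.13 beside -0.02 for all genes tested.

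The other 9 transporters had log2 fold changes between -0.87 and 0.48 and adjusted p between 0.647 and 0.967 (edgeR). Much of the spread came from 1 culture, because wildtype replicate 2 was the highest of the 6 libraries for 5 of the 10 genes and the lowest for 3. Together these are 8 of 10, against 53.3% of all genes tested. The median SD of the log2 counts of the 10 genes was 0.52 among wildtype and 0.17 among *Nhe6*-knockout cultures. Over all genes tested it was 0.34 and 0.15, so the wider wildtype spread was not particular to the transporters. The wildtype SD was the larger for 9 of the 10 genes. Without wildtype replicate 2, edgeR called 2.88% of all genes tested and still 0 of the 10 transporters, and 4 of the 10 fold changes turned their sign.

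**Figure D2:**
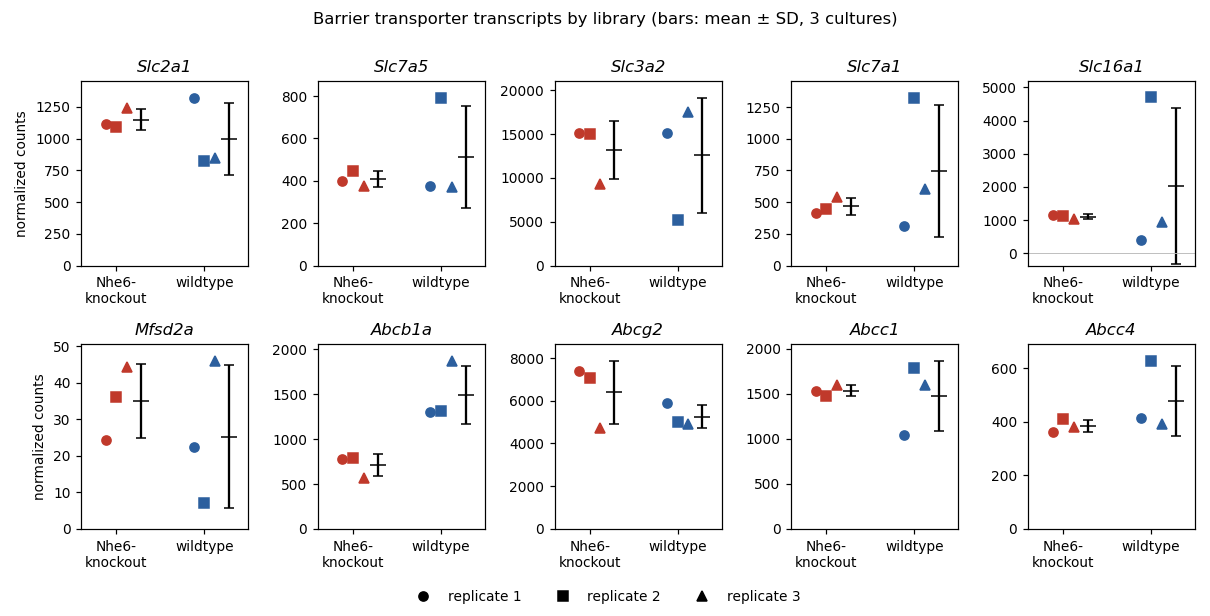
Normalized counts of the 10 transporters in each of the 6 libraries, with *Nhe6*-knockout cultures in red, wildtype cultures in blue, and black bars for the mean ± SD of 3 cultures per genotype. *Abcb1a* is the only gene whose genotypes do not overlap, and the 4722 normalized counts of *Slc16a1* in wildtype replicate 2 stretch its SD below 0.

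*Slc2a1* encodes GLUT1, the facilitative carrier through which glucose enters barrier endothelium. Its normalized counts were 1116, 1093 and 1243 in the *Nhe6*-knockout cultures and 1324, 823 and 848 among the wildtype cultures. All 3 *Nhe6*-knockout values lay between the wildtype extremes. Their means of 1151 ± 80.9 (SD, n = 3) and 998 ± 282 (SD, n = 3) gave a log2 fold change of 0.21 (SE 0.21, adjusted p = 0.773, edgeR). Without wildtype replicate 2 it was 0.08. The gene spans 119108711 to 119137983 of chromosome 4 (GRCm38), where its exons overlap those of *Gm12868* on the other strand.

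Of 8 other sugar and polyol carriers, 0 passed the threshold, and 4 had a fold change above 0. *Slc2a13*, a proton-coupled myo-inositol carrier, had the lowest log2 fold change of those with at least 100 normalized counts, -0.81 (SE 0.32), at an unadjusted p of 0.0418 and an adjusted p of 0.399 in edgeR. *Slc5a3*, the sodium-coupled myo-inositol carrier, had 1360, 5381 and 2704 normalized counts among the 3 wildtype cultures and 3556 to 4002 in *Nhe6*-knockout cells. Its log2 fold change of 0.27 (SE 0.46) thus lay within the wildtype spread.

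*Slc7a5* encodes LAT1, the light chain that exchanges large neutral amino acids, and *Slc3a2* encodes its heavy chain CD98, which brings the light chain to the membrane. *Slc3a2* had 15138, 15055 and 9328 normalized counts in the *Nhe6*-knockout cultures and 15096, 5153 and 17523 among the wildtype cultures. For *Slc7a5* the normalized counts were 400, 448 and 376 in *Nhe6*-knockout cells and 375, 792 and 371 in wildtype cells. Thus, in wildtype replicate 2 the light chain was at its highest and the heavy chain at its lowest. The log2 fold change was 0.07 (SE 0.46, adjusted p = 0.967, edgeR) for *Slc3a2* and -0.33 (SE 0.33, adjusted p = 0.759) for *Slc7a5*. Without wildtype replicate 2 both turned, to -0.31 and 0.12.

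The ratio of *Slc7a5* to *Slc3a2* counts was 0.0264, 0.0297 and 0.0403 in the *Nhe6*-knockout cultures and 0.0249, 0.154 and 0.0212 among the wildtype cultures. Only wildtype replicate 2 stood apart in this ratio. The log2 ratios averaged -4.98 ± 0.31 (SD, n = 3) and -4.53 ± 1.59 (SD, n = 3), which did not differ between the genotypes beyond this spread (exact two-sided permutation test, p = 1).

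CD98 also pairs with other light chains, and these were summed per kilobase after the values were seen. Of the summed level of *Slc7a5*, *Slc7a6*, *Slc7a7*, *Slc7a8* and *Slc7a11*, *Slc7a5* made up 1.59% to 2.98% in *Nhe6*-knockout cells and 1.14%, 2.19% and 28.6% in wildtype replicates 3, 1 and 2. In 5 of the 6 libraries most of the sum came from *Slc7a11*, the cystine-glutamate exchanger xCT, and *Slc7a8*, the neutral amino acid exchanger LAT2. Wildtype replicate 2 was the exception, where they made up 17.3% and 16.4%, and *Slc7a6*, a further neutral and basic amino acid exchanger, made up 33.9%. *Slc7a11* had 53534, 51028 and 20174 normalized counts in the *Nhe6*-knockout cultures and 33888, 1802 and 102546 among the wildtype cultures. For *Slc7a8* the wildtype counts were 8942, 615 and 5086, against 7702 to 12577 in *Nhe6*-knockout cells. Both were lowest in wildtype replicate 2, and neither passed the threshold (log2 fold changes -0.15 and 1.16, adjusted p = 0.970 and 0.651, edgeR).

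*Slc7a1* encodes CAT1, which carries arginine and lysine. Its normalized counts were 413, 445 and 544 in the *Nhe6*-knockout cultures and 310, 1324 and 607 among the wildtype cultures, so that the *Nhe6*-knockout cultures again fell inside the wildtype range. The log2 fold change was -0.68 (SE 0.50, adjusted p = 0.663, edgeR) and 0.02 without wildtype replicate 2. In the list of 19 other amino acid and creatine carriers, 17 were tested and 0 passed the threshold, with a median log2 fold change of -0.15. *Slc38a2*, the sodium-coupled neutral amino acid carrier SNAT2, was the only one of the list without overlap and lower in *Nhe6*-knockout cells (log2 fold change -1.40, standard error 0.53, adjusted p = 0.375). Its count of 19574 in wildtype replicate 2 was far above the 4792 and 6675 of the other wildtype cultures. *Slc38a4*, a related carrier named after its values were seen, was the only one without overlap and higher, at 38.8 to 73.3 against 7.82 to 13.9 normalized counts. Of all genes tested, 9.57% were lower and 10.3% were higher without overlap.

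*Slc16a1* encodes MCT1, which moves lactate, pyruvate and ketone bodies together with a proton. The 3 *Nhe6*-knockout cultures were close, with 1167, 1118 and 1042 normalized counts. The wildtype cultures had 402, 4722 and 940, of which wildtype replicate 2 was 7.04 times the mean of the other 2. Consequently the log2 fold change was -0.87 (SE 0.83, adjusted p = 0.749, edgeR) with all libraries and 0.72 (adjusted p = 0.324) without wildtype replicate 2. Over 15 alternatives it lay between -1.36 and 0.72, with adjusted p from 0.324 to 0.999.

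*Bsg*, the basigin chaperone that MCT1 needs to reach the membrane, had 12861 to 15589 normalized counts in *Nhe6*-knockout and 13993 to 21465 in wildtype cells (log2 fold change -0.22, standard error 0.21, adjusted p = 0.744). Per kilobase, *Bsg* exceeded *Slc16a1* in every library, by 30.1 to 34.0 times in *Nhe6*-knockout cells and by 7.76 to 130 times in wildtype cells. *Slc16a3*, the lactate exporter MCT4, had 274, 304 and 202 normalized counts in the *Nhe6*-knockout cultures and 117, 60.9 and 74.9 among the wildtype cultures. All *Nhe6*-knockout cultures were above all wildtype cultures, a log2 fold change of 1.62 (SE 0.33, adjusted p = 0.117, edgeR). With DESeq2 the adjusted p of *Slc16a3* was 4.56e-04, within 4.56e-04 to 0.532 over 15 alternatives.

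*Mfsd2a* encodes the sodium-dependent carrier of lysophosphatidylcholine with docosahexaenoic acid, which also restrains vesicle transport across brain endothelium. It had 23, 39 and 47 reads in the *Nhe6*-knockout cultures and 23, 7 and 43 among the wildtype cultures. The values of both genotypes overlapped at this low depth, and the log2 fold change of 0.48 (SE 0.67, adjusted p = 0.840, edgeR) became 0.03 without wildtype replicate 2. Of 6 other lipid carriers, *Slc27a3*, a fatty acid transport protein and acyl-CoA synthetase, had the smallest p. Its normalized counts were 328, 356 and 449 in the *Nhe6*-knockout cultures and 136, 162 and 136 among the wildtype cultures. These did not overlap, and the log2 fold change was 1.38 (SE 0.20, adjusted p = 0.0841, edgeR). It passed the threshold without wildtype replicate 2 and with DESeq2, with adjusted p between 1.50e-06 and 0.471 over 15 alternatives.

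*Abcb1a* encodes P-glycoprotein, the efflux pump for lipophilic drugs and the main copy of it in brain capillaries of rodents. Its normalized counts were 780, 791 and 568 in the *Nhe6*-knockout cultures and 1298, 1315 and 1872 among the wildtype cultures. All *Nhe6*-knockout cultures lay below all wildtype cultures, as for 9.57% of all genes tested, and wildtype replicate 2 lay next to wildtype replicate 1. Their means of 713 ± 126 (SD, n = 3) and 1495 ± 326 (SD, n = 3) gave a log2 fold change of -1.07 (SE 0.21). The unadjusted p was 0.00200 and the adjusted p was 0.116 in edgeR's test, which did not pass the threshold.

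Over 15 alternatives, the log2 fold change of *Abcb1a* stayed between -1.17 and -0.88, with adjusted p from 0.00131 to 0.473. The lowest of these was that of DESeq2, which called 4.65% of all genes tested and *Abcb1a* alone of the 10 transporters. Without wildtype replicate 2 the adjusted p was 0.0553. With the similar *Nhe6*-knockout replicates 1 and 2 summed to 1 library, the log2 fold change was -1.14 and the adjusted p 0.464. The cell cycle genes moved with the genotype in the same libraries, and their part in the difference was not tested.

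Rodents have a further P-glycoprotein gene, *Abcb1b*, beside *Abcb1a* on chromosome 5 of GRCm38. *Abcb1a* spans 8660077 to 8748575 and *Abcb1b* 8798147 to 8866315, both on the plus strand, and the exons of each overlap an annotated gene on the other strand (*Gm42686* and *Gm5106*). Their coding sequences of 3828 bases are 88.0% identical over 3819 aligned bases. Where only uniquely placed reads are counted, the share of identical stretches matters for both counts. Of all 75-base windows in the longest transcript, 10.6% for *Abcb1a* and 12.4% for *Abcb1b* occur unchanged in the other copy. A window has a median of 5 mismatches. The stretches below, of that typical distance, are coding bases of GRCm38 at chr5:8737670-8737744 (*Abcb1a*) and chr5:8851512-8851586 (*Abcb1b*), shown on the plus strand because they let a read be assigned to 1 copy. Capitals mark the bases at which the copies differ.
Abcb1a: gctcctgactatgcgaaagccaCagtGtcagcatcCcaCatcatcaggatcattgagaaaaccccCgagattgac
Abcb1b: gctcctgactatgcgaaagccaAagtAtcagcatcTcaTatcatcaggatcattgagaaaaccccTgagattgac

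*Abcb1b* had 2403, 2418 and 2518 normalized counts in the *Nhe6*-knockout cultures and 891, 620 and 1329 among the wildtype cultures. Here all *Nhe6*-knockout cultures lay above all wildtype cultures, as for 10.3% of all genes tested, so that the copies had fold changes of opposite sign. The log2 fold change was 1.37 (SE 0.27, adjusted p = 0.116, edgeR), and it lay between 1.13 and 1.69 over 15 alternatives. *Abcb1b* passed the threshold in 3 of these, without wildtype replicate 2 (adjusted p = 0.0424), with DESeq2 (4.79e-04, the lowest of a range up to 0.473) and with quality weights in limma-voom. The quality weights were 5.17 and 4.55 for the similar *Nhe6*-knockout replicates 1 and 2, against 0.21 to 0.65 for the other libraries. With this pair summed to 1 library, *Abcb1b* did not pass. *Abcb4*, the phosphatidylcholine carrier of the same gene cluster, was near the filter on low counts, with 8.52 to 13.9 normalized counts in *Nhe6*-knockout and 9.28 to 53.5 in wildtype cells.

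The ratio of *Abcb1b* to *Abcb1a* within a library needs no scaling between libraries. It was 3.08, 3.06 and 4.43 in the *Nhe6*-knockout cultures and 0.687, 0.471 and 0.710 among the wildtype cultures. *Abcb1b* thus exceeded *Abcb1a* in every *Nhe6*-knockout culture, and *Abcb1a* exceeded *Abcb1b* in every wildtype culture, wildtype replicate 2 included. The log2 ratio was 1.79 ± 0.31 (SD, n = 3) and -0.71 ± 0.33 (SD, n = 3), a difference of 2.50 (p = 0.1 in an exact two-sided permutation test, the smallest that 3 against 3 can give). It lay between 2.31 and 2.61 over 9 alternatives. A sum of both copies was made after the values were seen. It came to 3184, 3209 and 3086 normalized counts in the *Nhe6*-knockout cultures and 2190, 1935 and 3201 among the wildtype cultures, which overlapped. *Abcb1a* made up 18.4% to 24.6% of this sum in *Nhe6*-knockout and 58.5% to 68.0% in wildtype cells. Neither the ratio nor this sum was divided by exon length, which is 5480 bases for *Abcb1a* and 7990 for *Abcb1b*. Per kilobase, *Abcb1b* had 301 to 315 in *Nhe6*-knockout and 77.6 to 166 in wildtype cells. *Abcb1a* had 104 to 144 and 237 to 342, so the order within each genotype was the same.

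**Figure D3:**
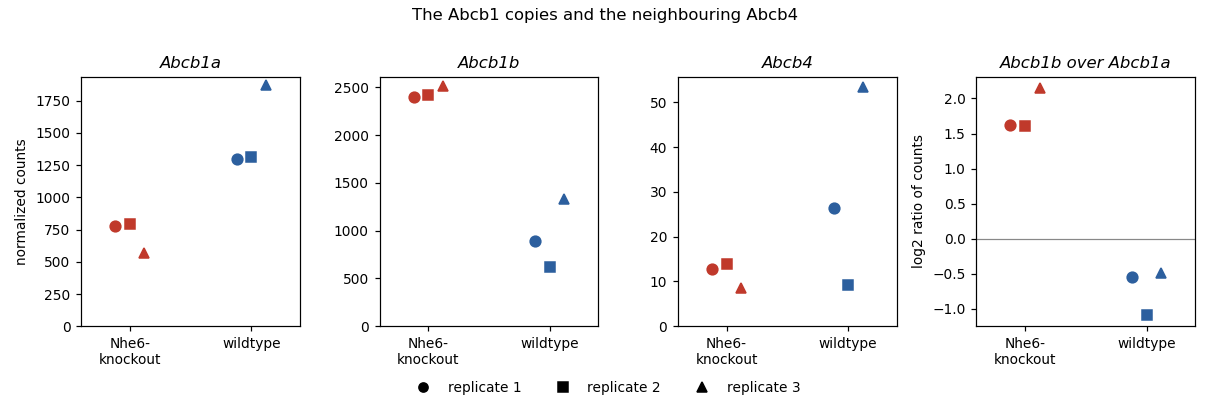
Normalized counts of *Abcb1a*, *Abcb1b* and the neighbouring *Abcb4* in each library, and the log2 ratio of *Abcb1b* to *Abcb1a* counts, with *Nhe6*-knockout cultures in red and wildtype cultures in blue. The log2 ratio is 1.61 to 2.15 in the *Nhe6*-knockout cultures and -1.09 to -0.49 among the wildtype cultures.

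The start regions are shown because the copies had fold changes of opposite sign, neither of which passed the threshold. Promoter windows, from 250 bases before to 50 after the RefSeq start on GRCm38.p6, were searched on both strands for the CCAAT box (CCAAT) and the GC box (GGGCGG), which are held by 37.4% and 35.7% of all 32851 windows. Capitals mark the matches. The *Abcb1b* window, chr5:8797897-8798196, held 2 CCAAT boxes and 1 GC box. The *Abcb1a* window, chr5:8566841-8567140, held none of these letters, and its RefSeq start lies 92986 bases before the GENCODE start of the gene. Both are on the plus strand.
Abcb1a: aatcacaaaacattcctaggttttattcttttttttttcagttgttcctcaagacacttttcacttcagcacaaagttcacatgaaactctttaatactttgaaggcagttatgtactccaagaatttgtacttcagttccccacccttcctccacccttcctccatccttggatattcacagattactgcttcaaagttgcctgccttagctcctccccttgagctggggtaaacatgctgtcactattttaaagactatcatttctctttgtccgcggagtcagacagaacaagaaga
Abcb1b: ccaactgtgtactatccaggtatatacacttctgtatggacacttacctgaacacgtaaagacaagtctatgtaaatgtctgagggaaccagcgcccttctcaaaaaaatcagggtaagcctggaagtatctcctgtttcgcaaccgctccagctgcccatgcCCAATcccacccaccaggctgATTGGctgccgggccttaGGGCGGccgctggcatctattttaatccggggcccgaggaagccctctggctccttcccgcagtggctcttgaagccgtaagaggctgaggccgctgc

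Of the 10 transporters, 8 had an entry in this promoter set, with 12 windows in all, and *Slc7a5* and *Abcc1* had none. The CCAAT box was found for 4 of the 8 genes and the GC box for 6. The E-box (CACGTG) was found for 2 of the 8, against 7.15% of all windows. Its last letters hold the hypoxia core (ACGTG), which was found for 5 of the 8, against 19.6% of all windows. The ATF4 and C/EBP site (TGATGNAAT) was found for 0 of the 8, against 0.965% of all windows. Several genes had more than 1 window, so these gene counts cannot be read directly against the shares of windows.

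*Abcg2* encodes BCRP, a half-transporter that exports urate and many drugs. Its normalized counts were 7398, 7084 and 4719 in the *Nhe6*-knockout cultures and 5882, 4984 and 4921 among the wildtype cultures. *Nhe6*-knockout replicate 3 was the lowest of all libraries and the other 2 *Nhe6*-knockout cultures were the highest. The log2 fold change was 0.28 (SE 0.20, adjusted p = 0.655, edgeR), and this was the only one of the 10 genes with a larger log2 SD among the *Nhe6*-knockout cultures (0.36) than among the wildtype cultures (0.14).

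*Abcc1* encodes MRP1, which exports glutathione conjugates. It had 1526, 1473 and 1593 normalized counts in the *Nhe6*-knockout cultures and 1040, 1790 and 1592 among the wildtype cultures, with a log2 fold change of 0.05 (SE 0.21, adjusted p = 0.947, edgeR). *Abcc4* encodes MRP4, which exports cyclic nucleotides and organic anions. Its normalized counts were 363, 410 and 379 in the *Nhe6*-knockout cultures and 413, 627 and 394 among the wildtype cultures, a difference of -0.31 in log2 fold change (SE 0.22, adjusted p = 0.647), and -0.07 without wildtype replicate 2. For both pumps the *Nhe6*-knockout cultures were close together and overlapped a wider wildtype range.

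Among 13 other ABC transporters, 12 were tested and 0 passed the threshold, with 7 fold changes below 0, 5 above 0 and a median of -0.31 on the log2 scale. Besides *Abcb1b*, *Abca2*, a lysosomal lipid transporter, did not overlap and had an unadjusted p under 0.05. It had 959 to 1295 normalized counts in *Nhe6*-knockout and 1406 to 2213 in wildtype cells (log2 fold change -0.64, standard error 0.21, adjusted p = 0.320, edgeR). The third such gene, *Abcg1*, a cholesterol exporter named after its values were seen, had at most 27.9 normalized counts. Of all genes tested, 19.9% were without overlap in either direction and 11.8% had an unadjusted p under 0.05.

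**Figure D4:**
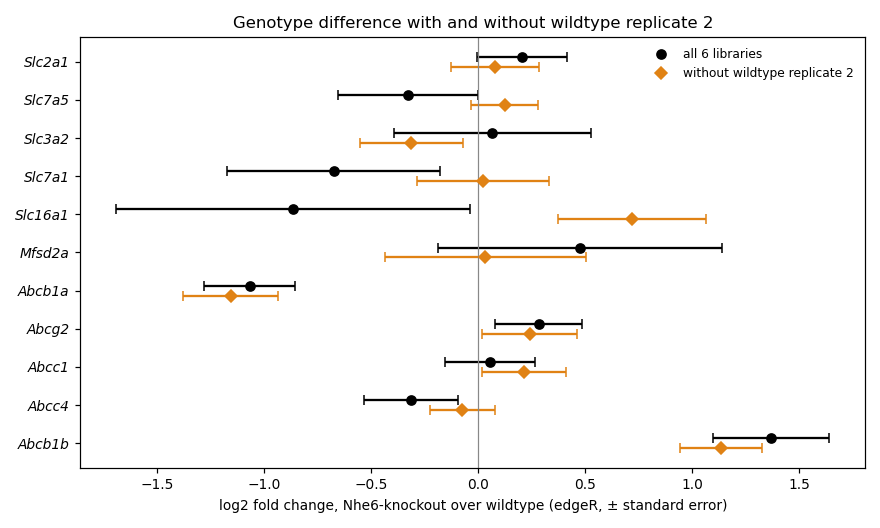
Log2 fold change of *Nhe6*-knockout over wildtype with its standard error (edgeR) for the 10 transporters and *Abcb1b*, with all 6 libraries in black and without wildtype replicate 2 in orange. *Abcb1a* stays near -1.1 and *Abcb1b* above 1 in both, whereas *Slc16a1* moves from -0.87 to 0.72.

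Further carriers of barrier endothelium were read from lists of 78 companion transporters, of which 71 were tested. With all libraries, edgeR called none of them. An unadjusted p under 0.05 was found for 6 that were lower and 6 that were higher in *Nhe6*-knockout cells, where 11.8% of all genes tested had such a p. Without overlap, 5 were lower and 11 higher, beside 9.57% and 10.3% of all genes. Of all genes tested, 26.8% had their highest and 26.5% their lowest count in wildtype replicate 2, and 62.0% of these carriers had one or the other there. DESeq2 called 6 of the 71, *Slc38a4*, *Slc16a3*, *Abcb1b*, *Slc27a3*, *Slc22a8* and *Slc29a1*, of which 1, *Slc22a8*, was lower, while it called 4.65% of all genes.

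Without wildtype replicate 2, edgeR called 7 of the 71 companion transporters, of which 5 were lower in *Nhe6*-knockout cells, and 2.88% of all genes. The largest of these differences was found for *Slco1c1*, which carries thyroxine into brain endothelium. It had 234, 247 and 344 normalized counts in the *Nhe6*-knockout cultures and 3326, 15.5 and 4321 among the wildtype cultures. The related organic anion carrier *Slco1a4* had 429, 416 and 509 in *Nhe6*-knockout and 2005, 36.1 and 2020 in wildtype cells. Both genes were lowest in wildtype replicate 2 and highest in the other 2 wildtype cultures.

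Consequently, the log2 fold changes of *Slco1c1* and *Slco1a4* were -3.21 (SE 1.45, adjusted p = 0.456) and -1.58 (SE 1.12, adjusted p = 0.650) with all libraries, and -3.80 (adjusted p = 0.00631) and -2.16 (adjusted p = 0.00684) without wildtype replicate 2. Over 15 alternatives the adjusted p ranged up to 0.948 and 0.993. Also among the 7 were *Slc16a9* and *Slc22a5*, which carry carnitine and were lower, and *Abcb1b* and *Slc27a3*, which were higher. *Slc22a5* is named because it was called, after its values were seen. In the library at odds with the rest, the macrophage and epithelial markers were lowest as well, and their part in these values was not tested.

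Of 6 lipid carriers, 4 had a fold change above 0, with a median of 0.89 on the log2 scale. For 19 tested vitamin, nucleoside and organic ion carriers the median was -0.04, with 10 below 0. *Slc29a1*, the equilibrative nucleoside carrier ENT1, was the most abundant of those without overlap that were higher, at 6214, 6564 and 4547 normalized counts in *Nhe6*-knockout and 3150, 2466 and 3366 among the wildtype cultures. Its log2 fold change was 0.95 (SE 0.20, adjusted p = 0.124, edgeR).

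Pathways known to control these carriers were described in the same way. Deprivation of amino acids raises *Slc7a5*, *Slc3a2* and *Slc7a11* through the factor ATF4. Of 10 genes of this response, 0 had an unadjusted p under 0.05, beside 11.8% of all genes tested. *Atf4* itself had a log2 fold change of -0.40 (SE 0.33). Hypoxia raises *Slc2a1* and *Slc16a3*. Of 9 hypoxia response genes, 0 passed the threshold, and 3 (*Ldha*, *Vegfa* and *Pgk1*) were higher without overlap at an unadjusted p under 0.05, beside 10.3% of all genes without overlap in this direction. *Ldha*, lactate dehydrogenase A, had 22767 to 24344 normalized counts in *Nhe6*-knockout and 11195 to 15635 in wildtype cells (log2 fold change 0.85, standard error 0.18, adjusted p = 0.125, edgeR).

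Wnt signalling maintains barrier carriers in brain endothelium. Of 10 genes of this pathway, 8 were tested and 0 passed the threshold. Its feedback targets *Axin2* and *Apcdd1*, named after their values were seen, were lower without overlap, with log2 fold changes of -0.54 (adjusted p = 0.263) and -0.85 (adjusted p = 0.212), beside 9.57% of all genes. *Adgra2*, a Wnt coreceptor, was higher without overlap (log2 fold change 0.34, adjusted p = 0.468), and 3 of the 8 fold changes lay above 0. The antioxidant response raises *Abcc1* and *Slc7a11*. Of its 8 genes, 0 passed the threshold, and 3 (*Srxn1*, *Gclm* and *Gsr*) were lower without overlap at an unadjusted p under 0.05, with *Srxn1* at -0.82 (adjusted p = 0.118). Of all genes, 9.57% were lower without overlap. *Hmox1*, heme oxygenase, was higher without overlap, at 17653 to 18658 against 5155 to 16810 normalized counts, and 4 of the 8 fold changes lay above 0.

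Finally, for each transporter the most similar of 80 other transporters was sought by Pearson's r of log2 counts over the 6 libraries, as a description in which both genes share every library. *Abcb1a* was most like *Slc16a10*, the aromatic amino acid carrier (r = 0.98), and *Slc3a2* most like *Slc7a11* (r = 0.98). For *Slc16a1* it was *Slc29a3* (r = 0.98), for *Slc7a5* *Slc16a13* (r = 0.97), for *Slc7a1* *Slc5a6* (r = 0.96), for *Abcc4* *Slc6a8* (r = 0.96) and for *Abcc1* *Slc5a3* (r = 0.93). These 5 transporters shared their highest count in wildtype replicate 2. The best values were lower for *Mfsd2a* with *Cd36* (r = 0.89), *Slc2a1* with *Abca7* (r = 0.88) and *Abcg2* with *Slc1a5* (r = 0.85).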

How the data were processed

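RNA of 6 untreated cultures was sequenced as poly(A)-enriched stranded libraries with 75 bp reads. The authors deposited raw counts of reads per gene symbol on mm10, and the submitters' processing notes name bcl2fastq 2.20.0.422, STAR 2.7.7a, HTSeq 0.13.5 and DESeq2 1.26.0, without roles. The strand setting of the counting is not given in the sources used here. Summary lines held 22.2% of reads and were left out.

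Genes were filtered with filterByExpr (minimum count 10), which left 13479, normalized with TMM and compared between genotypes in edgeR 4.0.16 (R 4.3.3) with its two-sided quasi-likelihood test (genotype only, Benjamini-Hochberg over all genes tested). The standard error is the log2 fold change divided by the square root of F. Ratios used raw counts without a pseudocount, with exact permutation tests. The log2 scale of normalized counts used a pseudocount of 0.5. Levels per kilobase used the union of GENCODE M21 exons. Tests were tried on simulated counts first.

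The 10 transporters and all lists were chosen with earlier results of these data known. Named were the 10 transporters, *Abcb1b*, *Bsg*, *Abcb4*, *Cdh5*, *Pecam1* and *Cldn5*, the most similar transporter of each, per list up to 2 companion transporters with the largest rise and up to 2 with the largest fall at a mean of at least 100 normalized counts, and the most abundant response and marker genes. Others were named after their values were seen, to spell out a count of 5 or fewer or a call. Results on items withheld for evaluation are not reported here. Alternatives were other normalizations and filters, DESeq2 1.42.0, limma-voom (limma 3.58.1) with and without quality weights, a replicate block, each culture left out, *Nhe6*-knockout replicates 1 and 2 summed, and transcript length.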

Additional observations from a re-analysis of the deposited data

How the results depend on the processing

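The number of genes past the threshold was 9 in edgeR's test, 21 with no filter beyond 1 count, 21 with at least 10 counts in every library, 627 with DESeq2, 58 with quality weights in limma-voom, 1 with *Nhe6*-knockout replicates 1 and 2 summed, and 0 to 395 with 1 culture left out (395 without wildtype replicate 2, 0 to 4 in the other 5 fits). Of the 10 transporters, DESeq2 called 1 (*Abcb1a*) and each other alternative 0. Of the companion transporters, DESeq2 called 6, quality weights 1, and the fits with 1 culture left out 0 to 7, with 7 without wildtype replicate 2. The cause was not tested. For 5 of the 10 transporters, *Slc2a1*, *Abcb1a*, *Abcg2*, *Abcc4* and *Mfsd2a*, the fold change kept its sign in every alternative that tested them, which for *Mfsd2a* left out the filter of at least 10 counts in every library.

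Signs turned in log2 fold change for *Slc3a2* (-0.31 to 0.37 with 1 culture left out, -0.045 with *Nhe6*-knockout replicates 1 and 2 summed), *Slc7a5* (-0.52 to 0.12), *Slc7a1* (-1.05 to 0.022), *Slc16a1* (-1.36 to 0.72, and 0.46 with quality weights), *Abcc1* (-0.15 to 0.21), *Slc5a3* (-0.093 to 0.90), *Slc6a6* (-1.48 to 0.64, and 0.15 with quality weights), *Slc16a13* (-1.47 to 0.075), and in the log2 ratio of *Slc7a5* to *Slc3a2* (-0.97 to 0.46).

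Replicate numbers are shared by the genotypes without a stated pairing. The deviations of same-numbered libraries correlated at 0.19, -0.22 and 0.08, and not every library correlated best with its own number. These values showed no pairing, but so few libraries cannot exclude one. With a replicate block, 2 genes passed, with 0 of the 10 transporters and 0 companion transporters, and the difference in log2 ratio of *Abcb1b* to *Abcb1a* had an exact p of 0.25, the smallest for 3 pairs. At 7 to 47 reads per library, counting error limits any comparison of *Mfsd2a*.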
